A study of Mus musculus with 10 samples.

Results

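The constitutive proteasome subunit genes are the Psma, Psmb, Psmc and Psmd genes, taken by symbol and RefSeq mRNA entry without the immunoproteasome subunits Psmb8, Psmb9 and Psmb10, with the transcript of highest mean reads standing for each gene. They numbered 36 of the 23992 gene symbols measured, 16 encoding the 20S core (Psma, Psmb) and 20 bearing Psmc or Psmd names of the 19S cap. The rule also took 2 tissue forms, Psma8 of testis and Psmb11 of thymus, and 3 chaperones that help build the 19S base and are not part of the finished particle (Psmd5, Psmd9, Psmd10).

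The proteasome degrades proteins that carry ubiquitin chains. Its 20S core is a barrel of outer alpha rings, which gate the entrance, and inner beta rings, in which Psmb6, Psmb7 and Psmb5 carry the active sites. The 19S cap sits on the core: ATPases of its base (Psmc1 to Psmc6) unfold the substrate, base subunits such as Psmd1, Psmd2 and Psmd4 bind ubiquitin or its carriers, and a lid with the deubiquitinase Psmd14 removes the chain. In lymphocytes, interferon-inducible Psmb9, Psmb10 and Psmb8 can take the places of Psmb6, Psmb7 and Psmb5 in newly built cores.

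RNA was sequenced from regulatory T cells (Tregs, the Foxp3-expressing CD4 T cells that restrain immune responses) of C57BL/6J mice. Wild-type natural Tregs from spleen were cultured for 24 h with anti-CD3 and anti-CD28, which stimulate the T cell receptor, together with the epithelial cytokine TSLP (TCR+TSLP, 2 libraries) or without it (TCR, 2 libraries). Lung Tregs came from ovalbumin-immunized mice with allergic lungs that carried Crlf2fl/fl and Foxp3YFP-Cre (lung Crlf2-deleted, 3 libraries) or Foxp3YFP-Cre alone, labelled wild-type (lung control, 3 libraries). Crlf2 encodes the TSLP receptor chain, Cre was driven by the Foxp3 locus in both lung groups, and no ages are given in the labels. Crlf2 itself was at 6.22, 4.63 and 2.46 in the lung Crlf2-deleted libraries, against 63.3, 98.4 and 71.5 in the lung control libraries. These levels, and all levels below, are normalised RPKM, the reads per kilobase of transcript relative to a library's gene reads (RPKM) after TMM scaling over the 10 libraries.

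Reads over the genes ran from 34852307 to 51671899 in TCR+TSLP, 27237313 to 27866029 in TCR, 9647682 to 18349035 in lung Crlf2-deleted and 1439675 to 12179225 in lung control libraries. The 6 Treg markers examined were detected in every library, with Foxp3 at 39.3 to 44.0 in TCR+TSLP, 45.0 to 50.9 in TCR, 94.0 to 119.6 in lung Crlf2-deleted and 48.3 to 115 in lung control libraries. Lung control 3 stood apart: 19 of 23 markers of other cells were highest there and all 6 Treg markers were lowest there among the lung libraries. Its summed erythroid markers reached 95840, against 1088 to 1567 in lung Crlf2-deleted and 1062 to 3872 in the other lung control libraries. Its summed macrophage and dendritic markers reached 3524, against 789 to 827 in lung Crlf2-deleted and 219 to 302 in the other lung control libraries. The epithelial secretory gene Scgb1a1 was at 4356 to 34820 in lung Crlf2-deleted and 31310 to 152100 in lung control libraries, and it was at 0 in all spleen libraries. In bulk RNA, fewer cells of a type and less RNA per cell cannot be told apart. The counts of members called in the lung comparisons, and some of the other lung results, are therefore also given without lung control 3. Nothing in the labels tells whether replicates were separate animals or separate cultures, and the p-values below therefore cover the spread between these libraries alone, which may be technical.

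Promoter sequences of 29 of the 36 members were found in a RefSeq table (build GRCm38.p6), and those of 4 members are shown because the results below turn on these genes: the catalytic subunits Psmb5 and Psmb6, the most abundant alpha subunit gene Psma7, and the chaperone gene Psmd5, the 1 member called higher with TSLP in the edgeR test. Each run holds the 250 bases upstream of the transcript start that the table uses, read in the direction of the gene: Psmb5 at chr14:54617996-54618245 on the minus strand, Psmb6 at chr11:70525107-70525356 on the plus strand, Psma7 at chr2:180042465-180042714 on the minus strand and Psmd5 at chr2:34870963-34871212 on the minus strand. Capitals mark TGACNNNGC, the core of the antioxidant response element that the factors encoded by Nfe2l1 and Nfe2l2 are known to bind, CCAAT, and the GC box GGGCGG, or their reverse complements. The gene span in RefSeq starts further upstream for Psmb6 and Psmd5, so that the last 33 bases of the Psmb6 run, its TGACNNNGC match included, and the last 3 of the Psmd5 run lie inside that span.
Psmb5: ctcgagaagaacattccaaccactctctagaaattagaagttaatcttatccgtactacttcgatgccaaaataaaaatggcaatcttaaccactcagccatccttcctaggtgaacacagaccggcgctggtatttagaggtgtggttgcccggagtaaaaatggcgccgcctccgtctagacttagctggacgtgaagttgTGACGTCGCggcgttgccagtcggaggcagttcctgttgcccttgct
Psmb6: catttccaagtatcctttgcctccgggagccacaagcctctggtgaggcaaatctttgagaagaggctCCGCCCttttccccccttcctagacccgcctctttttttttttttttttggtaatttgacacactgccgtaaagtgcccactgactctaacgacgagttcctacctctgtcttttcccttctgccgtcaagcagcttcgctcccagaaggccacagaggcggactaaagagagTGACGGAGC
Psma7: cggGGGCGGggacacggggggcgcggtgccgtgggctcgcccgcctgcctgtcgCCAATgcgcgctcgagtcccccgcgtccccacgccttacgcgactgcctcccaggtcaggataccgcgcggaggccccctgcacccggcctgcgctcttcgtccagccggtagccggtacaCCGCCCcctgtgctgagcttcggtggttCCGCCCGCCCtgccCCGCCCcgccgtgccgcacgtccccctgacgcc
Psmd5: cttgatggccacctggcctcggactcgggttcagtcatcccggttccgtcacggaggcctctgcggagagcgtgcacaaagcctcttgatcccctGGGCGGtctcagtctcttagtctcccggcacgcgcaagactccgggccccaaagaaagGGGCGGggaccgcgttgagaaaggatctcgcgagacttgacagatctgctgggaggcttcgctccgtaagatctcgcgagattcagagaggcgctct
Matches on both strands were counted, and matches of different motifs could overlap. Psma6 and Psmc2 had 2 promoters each in the table, and a match in either was counted. The TGACNNNGC core was found in 5 of the 29 members (17.2%: Psmb5, Psmb6, Psmc6, Psmd12 and Psmd9), against 10.2% of 32851 promoters of the same length. CCAAT was found in 12 of the 29 (41.4%), against 33.8% of all promoters. The GC box was found in 17 of the 29 (58.6%), against 32.7% of all promoters, and in 12 of 17 19S members with a sequence and 5 of 12 of the 20S members. A match describes the letters and not a bound site.

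In every group the 20S genes had higher transcript levels per kilobase, by the median, than the 19S genes. The median level of the 14 core genes other than Psma8 and Psmb11 was 253 in TCR+TSLP, 375 in TCR, 98.1 in lung Crlf2-deleted and 112 in lung control libraries. The median over the 20 19S genes was 121 in TCR+TSLP, 127 in TCR, 58.3 in lung Crlf2-deleted and 59.5 in lung control libraries. Subunits that are present in equal numbers in the particle thus differed in transcript level, and the difference between top and bottom core gene was 2.87-fold in TCR+TSLP, 4.77-fold in TCR, 8.51-fold in lung Crlf2-deleted and 7.01-fold in lung control libraries.

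**Figure D1:**
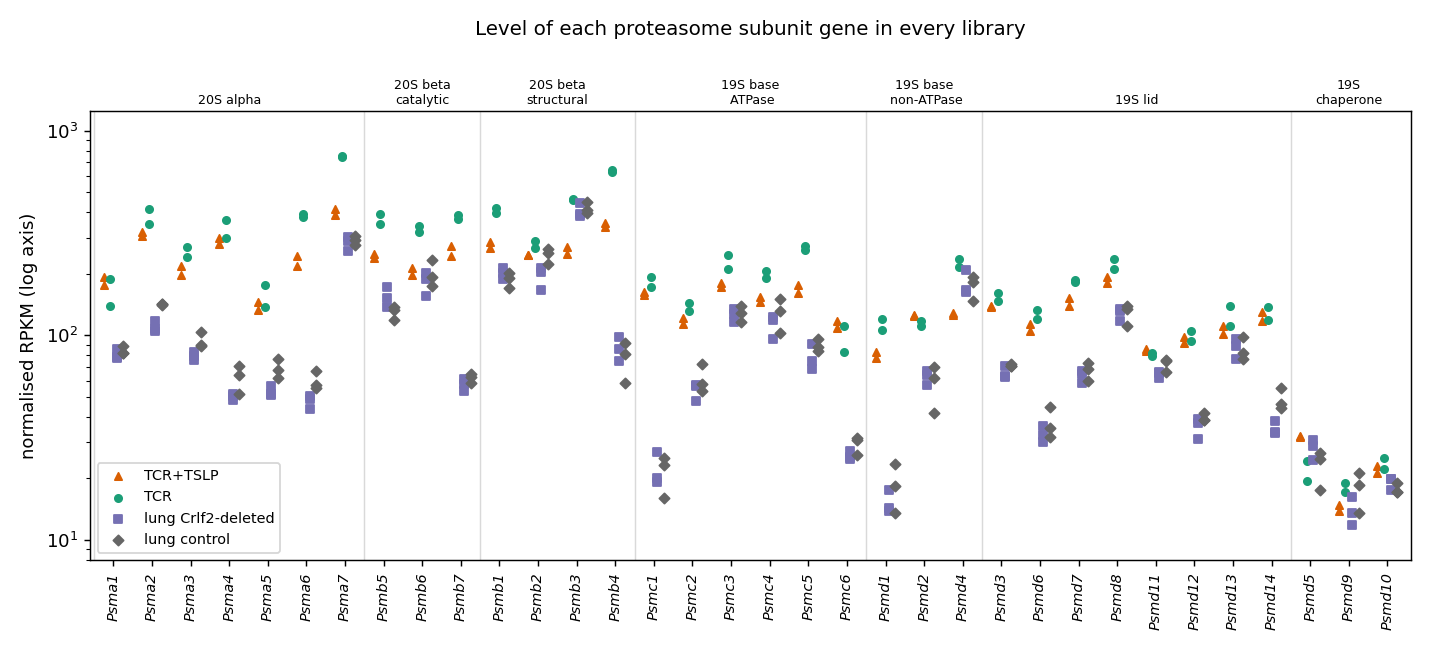
Normalised RPKM (log axis) of each member in each of the 10 libraries, 1 point per library, ordered by place in the particle, without Psma8 and Psmb11, whose levels were under 3. The spleen libraries (triangles and circles) lie above the lung libraries (squares and diamonds) for most members, with exceptions such as Psmb3 and Psmd4, and the 3 chaperone genes lie lowest among the 19S genes of the spleen libraries.

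The order of the core genes differed between spleen and lung. Psma7, an alpha ring subunit, led the core in the stimulated spleen Tregs, at 414 and 387 in TCR+TSLP and 742 and 757 in TCR libraries. In the lung libraries Psmb3, a structural beta subunit, led, at 390.2, 384 and 446 in lung Crlf2-deleted and 449.6, 395 and 412 in lung control libraries. Psma7 came next in the lung at 288, 259 and 302 in lung Crlf2-deleted and 294, 275 and 305 in lung control libraries, below every Psmb3 value.

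Apart from the tissue forms, the lowest core gene was Psma5, an alpha ring subunit, in spleen and Psma6, another, in lung. Psma5 was at 145 and 133 in TCR+TSLP and 138 and 176 in TCR libraries. Psma6 was at 50.8, 43.5 and 49.1 in lung Crlf2-deleted and 55.1, 66.8 and 57.5 in lung control libraries. Psma5 overlapped with the next gene, Psma1, in TCR but not in TCR+TSLP, and Psma6 overlapped with Psma4 in both lung groups and also with Psma5, Psmb4 and Psmb7 in lung control. Within each TCR library Psma5 was still below Psma1 (139 and 190). Within each lung control library Psma6 was below Psma5, but it was not below Psma4, Psmb4 and Psmb7 in every one.

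Among the 19S genes the lid subunit Psmd8 led in TCR+TSLP (192 and 181), the ATPase Psmc5 led in TCR (260.4 and 272), and the ubiquitin receptor Psmd4 led in lung Crlf2-deleted (167, 164 and 209) and in lung control (183, 193.5 and 147). In TCR+TSLP, TCR and lung Crlf2-deleted libraries the leading gene did not overlap with any other 19S gene, but in lung control Psmd4 overlapped with the ATPase gene Psmc4 (150.2, 103 and 131). Within each lung control library Psmd4 was still above Psmc4. The chaperone gene Psmd9 was lowest in TCR+TSLP (14.9 and 13.8), TCR (17.2 and 19.01) and lung Crlf2-deleted libraries (13.6, 11.8 and 16.2), and the chaperone gene Psmd10 in lung control libraries (17.1, 17.3 and 18.99). In lung control libraries Psmd10 lay within the range of Psmd9 (13.5 to 21.3) and overlapped with Psmc1, Psmd1 and Psmd5, and in lung Crlf2-deleted libraries Psmd9 overlapped with Psmd1, so the lowest place in the lung is not set beyond the spread.

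The tissue forms were near the floor. Psma8 had 6 and 8 reads in TCR+TSLP, 5 and 5 in TCR, 10, 0 and 0 in lung Crlf2-deleted and 0, 0 and 7 in lung control libraries, and it did not pass the filter on low counts in any comparison. The other 35 members passed it in all 3 comparisons. Psmb11 had 58 and 90 reads in TCR+TSLP, 284 and 115 in TCR, 45, 59 and 54 in lung Crlf2-deleted and 28, 5 and 33 in lung control libraries, and its levels were at most 2.82.

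On GRCm38.p6 the members lie on many chromosomes, with a few close pairs. Psmb5 (chr14:54614120-54617995, minus strand) and Psmb11 (chr14:54625310-54629556, plus strand) stand beside each other, and Psmb4 (chr3:94884324-94886958, minus strand) and Psmd4 (chr3:95032688-95042614, minus strand) lie on the same stretch of chromosome 3. Psma7 lies at chr2:180036367-180042464 and Psmd5 at chr2:34852087-34870965, both on the minus strand. The files give reads per whole transcript, with no division by exon.

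The first comparison asked how TSLP, added to T cell receptor stimulation, changed the subunit genes. Of 35 members tested, 20 were lower and 1 was higher in TCR+TSLP than in TCR (edgeR quasi-likelihood test, Benjamini-Hochberg adjusted p under 0.05 over 13214 genes). Over all genes 45.8% were called, 22.7% higher and 23.1% lower, and the median log2 fold change was 0.01. The core carried 11 of the calls, all lower, among 15 genes with a median of -0.61. The 19S genes carried 9 lower and 1 higher among 20, with a median of -0.27. The split of calls depended on scaling. With library totals alone, which moved the median of all genes to 0.24, 4 members were higher and 13 lower. In that setting 5059 of 13214 genes were higher and 2000 lower. On the deposited RPKM (limma on log2(RPKM + 1), median of all genes 0.30) 5 members were higher and 5 lower. On that scale 5400 of 10499 genes were higher and 1034 lower, the 19S median was 0.10 and the core median was -0.23. Without TCR+TSLP replicate 2, 1 member was higher and 12 were lower.

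Over all genes, longer transcripts had higher fold changes with TSLP. Genes of 750 to 1000 bases had a median log2 fold change of -0.60 (548 genes), those of 1500 to 2000 bases -0.14 (1673 genes) and those of 4000 to 8000 bases 0.21 (3048 genes). The core transcripts were short, with a median of 1016.5 bases, against 1582 bases for the 19S transcripts. With the length trend of all genes removed, the core and 19S medians were both -0.09, and their difference was 0.0016 in place of -0.34. In that setting 3 members were called higher and 7 lower, where 2299 of 13214 genes were higher and 2403 lower. Removing a trend on GC content as well gave a difference of 0.013. It left 2 members higher and 10 lower, where 1826 of 13214 genes were higher and 2086 lower. Whether the length trend comes from the cells or from the libraries was not tested.

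**Figure D2:**
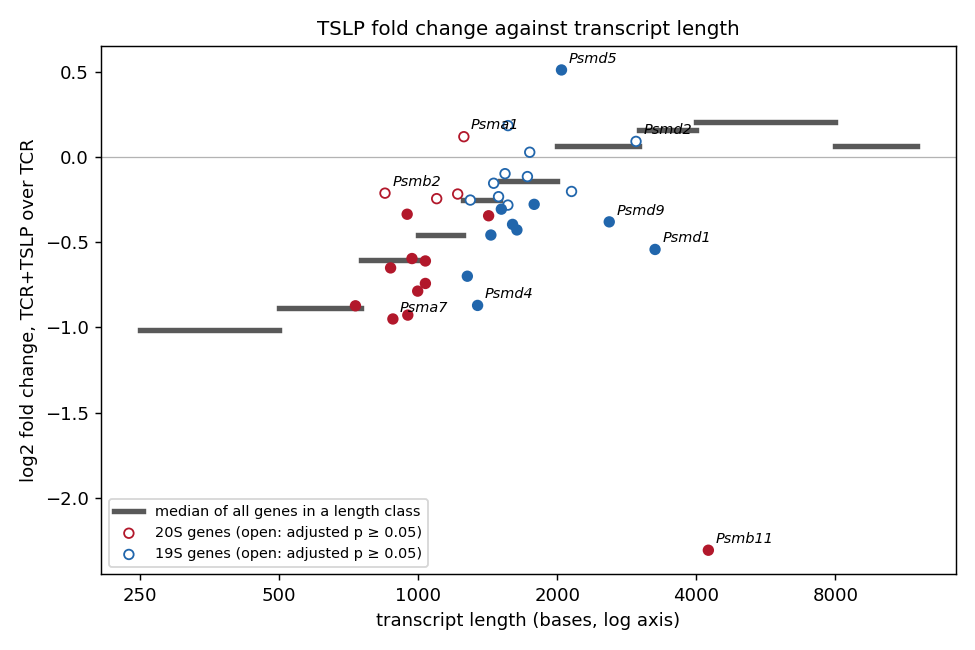
Log2 fold change of TCR+TSLP over TCR for each member tested (red, 20S; blue, 19S; open, adjusted p of 0.05 or more) against its transcript length in bases on a log axis, with the median of all genes in each length class as grey bars (the outer classes are those up to 500 and over 8000 bases). Many members lie near the bars, with Psmd4, Psmd1, Psmd9 and Psmb11 among those below and Psmd5, Psma1 and Psmb2 among those above.

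The 3 catalytic subunit genes were all lower with TSLP. Psmb5, which carries the chymotrypsin-like site, was at 250.3 and 238 in TCR+TSLP, against 350.4 and 392 in TCR libraries. Psmb6, which carries the caspase-like site, was at 212 and 197.4 in TCR+TSLP, against 322 and 342 in TCR libraries. Psmb7, which carries the trypsin-like site, was at 272 and 245 in TCR+TSLP, against 369.9 and 386 in TCR libraries. For each of these genes both TCR+TSLP libraries lay below both TCR libraries, as for 34.5% of all genes tested, with 41.4% above. The annotation names 4 pseudogenes of Psmb5, Psmb6 and Psmb7, and whether they share reads with these genes is not known. The log2 fold changes were -0.65 ± 0.09 for Psmb5, -0.74 ± 0.09 for Psmb6 and -0.60 ± 0.09 for Psmb7 (± SE, adjusted p = 0.00113, 0.000542 and 0.00166 by the edgeR quasi-likelihood test, n = 2 each). With the length trend removed these were -0.02, -0.25 and -0.05, and none passed the test (adjusted p = 0.864, 0.0585 and 0.681).

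The largest fold change among the members called was that of Psmb11, which cortical epithelial cells of the thymus use in place of Psmb5. Its level was 0.411 and 0.427 in TCR+TSLP, against 2.82 and 1.19 in TCR libraries, so that the TCR libraries differed from each other by more than 2-fold. The log2 fold change was -2.31 ± 0.39 (adjusted p = 0.00271), and without TCR replicate 1 it was -1.54.

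Psma7, Psmb4 and Psmd4 were lower in every one of 12 other settings tried, length and GC removal included. Psma7 was at 414 and 387 in TCR+TSLP, against 742 and 757 in TCR libraries (log2 fold change -0.95 ± 0.09, adjusted p = 0.000215, and -0.33 with the length trend removed). Psmb4, a structural beta subunit, was at 353 and 338 in TCR+TSLP, against 625 and 645 in TCR libraries (log2 fold change -0.93 ± 0.09, adjusted p = 0.000213, and -0.37 with the length trend removed). Both genes showed TCR+TSLP libraries close together and well below the TCR libraries, where 34.5% of all genes tested lay below without overlap.

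Psmd4, the ubiquitin receptor of the 19S base known as Rpn10, was at 129 and 126 in TCR+TSLP, against 216 and 236 in TCR libraries. Its log2 fold change was -0.87 ± 0.09 (adjusted p = 0.000283), and -0.57 with the length trend removed. Psmb3 was at 269 and 250.3 in TCR+TSLP, against 459 and 462 in TCR libraries, with a log2 fold change of -0.87 ± 0.09 (adjusted p = 0.000283). It has the shortest transcript of the members, 731 bases, and with the length trend removed its log2 fold change was -0.10 (adjusted p = 0.396).

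Psmd5, a chaperone of the 19S base, was the 1 member called higher. It was at 32.0 and 32.1 in TCR+TSLP, against 19.3 and 24.3 in TCR libraries. The groups did not overlap, and 41.4% of all genes tested likewise had both TCR+TSLP libraries above both TCR libraries. The log2 fold change was 0.51 ± 0.12 (adjusted p = 0.00965), and it was 0.54 with the length trend removed. With all 4 groups in 1 fit it was 0.55 and did not pass the test (adjusted p = 0.125 by edgeR). Of the other chaperone genes, Psmd9 was lower at -0.38 (adjusted p = 0.0169 by edgeR) and Psmd10, at -0.15, was not called (adjusted p = 0.265). With library totals alone Psmd9 was at -0.15 and Psmd10 at 0.074, and on the deposited RPKM at -0.009 and 0.19. Neither gene was called on those scales. With the length trend removed Psmd9 was lower (-0.48, adjusted p = 0.01 by edgeR) and Psmd10 was at 0.084 (adjusted p = 0.566).

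By place in the particle, 4 of 7 alpha genes, 3 of 3 catalytic beta genes and 3 of 4 structural beta genes were lower, with median log2 fold changes of -0.34, -0.65 and -0.74. In the cap, 4 of 6 ATPase genes (median -0.35), 2 of 3 base non-ATPase genes (median -0.54) and 2 of 8 lid genes (median -0.23) were lower. Over all genes 23.1% were called lower. The length trend of all genes had medians of -0.45, -0.54 and -0.61 at the alpha, catalytic and structural genes. At the ATPase, base non-ATPase and lid genes its medians were -0.21, 0.13 and -0.19. Members that did not pass the test included Psma1, the lid genes Psmd11 and Psmd12, the ATPase Psmc6 and the scaffold Psmd2, with log2 fold changes of 0.12, 0.03, -0.12, 0.18 and 0.09. With the length trend removed, Psma1 (0.47, adjusted p = 0.0338) and the structural beta gene Psmb2 (0.44, adjusted p = 0.00692) were called higher. Psmd1, the large scaffold of the base, has a transcript of 3256 bases and was lower both as measured (-0.54) and with the length trend removed (-0.71, adjusted p = 0.0025). On the deposited RPKM Psmd1 was not called (-0.17, adjusted p = 0.35 by limma).

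**Figure D3:**
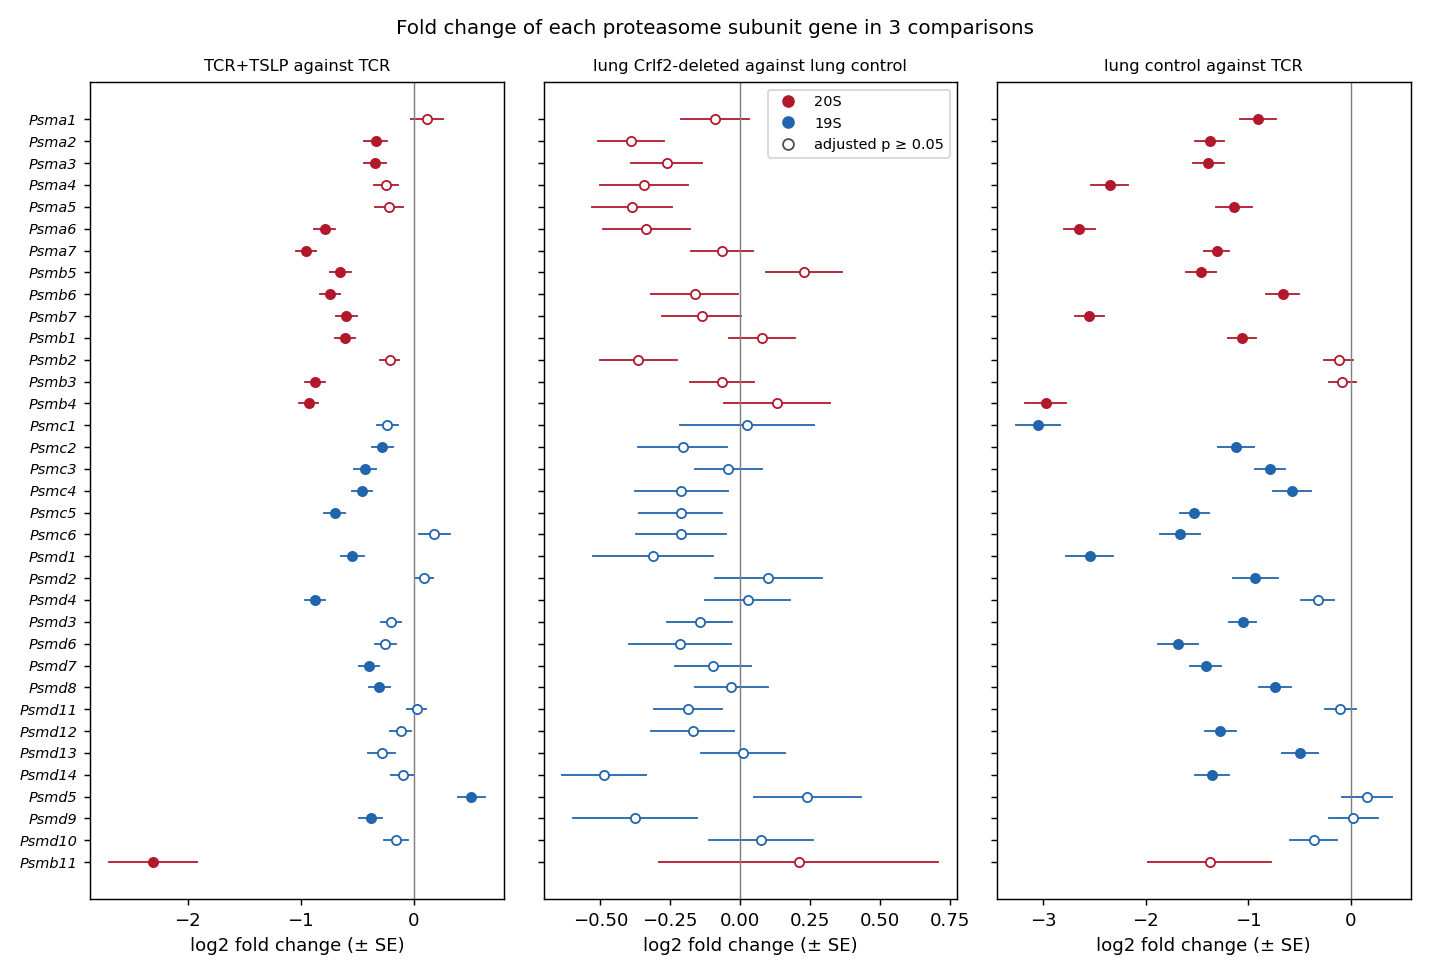
Log2 fold change ± SE (edgeR) of the 35 members tested in 3 comparisons, 20S in red and 19S in blue, filled where the adjusted p was under 0.05; the horizontal scales differ between panels. With TSLP 20 members were lower and 1 higher, with Crlf2 deletion 0 were called, and in lung control against TCR 27 were lower.

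Other genes of the pathway were taken from a list of 35 genes tested. Of these 11 were higher and 15 lower with TSLP, where 22.7% of all genes were higher and 23.1% lower. The balance turned with scaling, to 19 higher and 11 lower with library totals alone and 19 higher and 10 lower on the deposited RPKM. In these settings the calls over all genes were 5059 higher and 2000 lower of 13214, and 5400 higher and 1034 lower of 10499. All 5 genes for assembly of the core were lower, among them Pomp, which matures the beta ring (-0.81, adjusted p = 0.000519), but 0 of 5 were called with the length trend removed (edgeR, Pomp -0.04, adjusted p = 0.76). The 3 immunoproteasome genes were lower, with Psmb10 at -1.31 and Psmb8 at -0.77, and with the length trend removed these were -0.97 and -0.41, both still called, and Psmb9 was not (0.16, adjusted p = 0.251). The PA28 alpha and beta activator genes Psme1 (-0.87) and Psme2 (-1.21) were lower, and the nuclear activator genes Psme3 (0.47) and Psme4 (0.55) were higher. All 4 activator genes were also called in those directions with the length trend removed, with library totals alone and on the deposited RPKM, on which scale Psmb9 was not called (-0.15, adjusted p = 0.434 by limma).

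The proteasome-bound enzymes Usp14, a deubiquitinase, and Ube3c, a ubiquitin ligase, were higher with TSLP, at 0.69 and 0.57. Of the 4 genes listed under factors of proteasome genes, 3 were higher and Ddi2 was not called (0.26, adjusted p = 0.129 by edgeR). The higher genes were Nfe2l2 (0.76, adjusted p = 0.00467), Ngly1 (0.71, adjusted p = 0.012) and Nfe2l1 (0.26, adjusted p = 0.0436). Nfe2l1 was not called when the length trend was removed (0.05, adjusted p = 0.721). Nfe2l2 was at 16.5 and 17.2 in TCR+TSLP, against 8.06 and 11.3 in TCR libraries. Over the 35 genes, 8 were higher and 6 lower with the length trend removed, where 2299 of 13214 genes were higher and 2403 lower.

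The second comparison asked how deletion of Crlf2 in Foxp3-expressing cells changed the subunit genes in allergic lung. None of the 35 members was called (0 by edgeR, 4 of them at an unadjusted p under 0.05, and 0 by DESeq2 and by limma), where 1.79% of 12717 genes were called, 0.771% higher and 1.01% lower. The median log2 fold change was -0.14 for the core and -0.16 for the 19S genes, against -0.04 for all genes. These medians turned to 0.049 and 0.021 with library totals alone (all genes 0.14) and to 0.27 and 0.24 on the deposited RPKM (all genes 0.29), so no direction can be given. Without lung control 3 the number called was again 0.

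The members with the smallest p were the alpha subunit genes Psma2 and Psma5 and the lid deubiquitinase gene Psmd14. Psma2 was at 117, 106 and 107 in lung Crlf2-deleted, against 143, 141 and 142 in lung control libraries (log2 fold change -0.39 ± 0.12, adjusted p = 0.154 by edgeR). Psmd14 was at 33.9, 33.2 and 37.9 in lung Crlf2-deleted, against 46.4, 55.0 and 44.4 in lung control libraries (-0.49 ± 0.15, adjusted p = 0.159). Psma5 was at 51.9, 51.1 and 56.3 in lung Crlf2-deleted, against 61.9, 76.4 and 68.1 in lung control libraries (-0.39 ± 0.14, adjusted p = 0.232). In all 3 genes every lung Crlf2-deleted library lay below every lung control library, as for 10.7% of all genes tested. The genes were picked by p on these same values, so this separation adds no support, and the differences did not pass the adjusted test. Without lung control 3 the edgeR log2 fold changes were -0.39, -0.54 and -0.38. Of the 3, Psma5 alone stayed separate with library totals alone, and none did on the deposited RPKM. On that scale the log2 fold changes of Psma2, Psmd14 and Psma5 were 0.034, -0.057 and 0.035 (limma).

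On the scale of normalised RPKM, 6 of 15 core genes (Psma2, Psma3, Psma4, Psma5, Psma6 and Psmb2) had all lung Crlf2-deleted libraries below all lung control libraries, and 1 (Psmb5) had them above. Among the 19S genes 1 of 20 (Psmd14) lay below and 0 above. Over all genes 10.7% lay below and 11.3% above. Without lung control 3 the same 6 core genes lay below, and 6 of 20 19S genes did too (Psmc2, Psmd3, Psmd7, Psmd9, Psmd11 and Psmd14) and 1 lay above, where 16.9% of all genes lay below and 20.2% above. The counts also depended on scaling. With library totals alone 1 core gene lay below and 2 above and 0 19S genes lay below and 2 above, where 6.02% of all genes lay below and 19.1% above. On the deposited RPKM 0 core genes lay below and 7 above and 0 19S genes lay below and 8 above, where 3.59% of all genes lay below and 33.7% above.

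Of the catalytic genes, Psmb5 was at 138.4, 153 and 173 in lung Crlf2-deleted, against 119, 133 and 138.0 in lung control libraries (0.23 ± 0.14, adjusted p = 0.47), with no overlap but with its nearest libraries almost equal. Psmb6 was at 189, 156 and 203 in lung Crlf2-deleted, against 234, 175 and 193.9 in lung control libraries (-0.16 ± 0.15, adjusted p = 0.667). Psmb7 was at 57.6, 60.9 and 53.3 in lung Crlf2-deleted, against 62.8, 58.3 and 64.5 in lung control libraries (-0.14 ± 0.14, adjusted p = 0.694). The groups overlapped for Psmb6 and Psmb7.

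Of the 35 other pathway genes, 0 were higher and 3 were lower in lung Crlf2-deleted libraries: Psmb10 (-0.81, adjusted p = 0.0338), Psmb9 (-0.75, adjusted p = 0.0397) and Psme2 (-0.74, adjusted p = 0.0447). Over all genes 0.771% were higher and 1.01% lower. With library totals alone Psmb10 (-0.64, adjusted p = 0.0973), Psmb9 (-0.58, adjusted p = 0.134) and Psme2 (-0.57, adjusted p = 0.134) did not pass the edgeR test, and on the deposited RPKM 0 of the 3 were called and the factor gene Nfe2l1 was higher (0.71, adjusted p = 0.0376 by limma). With the length trend removed Psme2 was not called (-0.69, adjusted p = 0.0518 by edgeR). Without lung control 3, 5 pathway genes were lower and 0 higher, where 280 of 12931 genes were lower and 252 higher. The level of Psmb5 relative to its replacement Psmb8 was 0.281, 0.301 and 0.327 in lung Crlf2-deleted libraries, against 0.145, 0.17 and 0.213 in lung control libraries. That of Psmb7 relative to Psmb10 was 0.392, 0.424 and 0.346 in lung Crlf2-deleted libraries, against 0.206, 0.243 and 0.29 in lung control libraries. Psmb6 relative to Psmb9 was 0.97, 0.764 and 0.922 in lung Crlf2-deleted libraries, against 0.676, 0.452 and 0.661 in lung control libraries. In all 3 pairs the lung Crlf2-deleted libraries lay above the lung control libraries, as they also did without lung control 3. These ratios within a library do not depend on scaling and were not tested. Macrophage and other markers were high in lung control 3. Without it the summed macrophage and dendritic markers still differed, at 789 to 827 in lung Crlf2-deleted and 219 to 302 in lung control libraries. Whether RNA of other cells bears on the ratios was not tested.

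The ratios to Psmb8 and Psmb10 were higher in all stimulated spleen libraries than in any lung library. Psmb5 over Psmb8 was 0.505 and 0.508 in TCR+TSLP, against 0.472 and 0.459 in TCR libraries, and Psmb7 over Psmb10 was 3.71 and 3.60 in TCR+TSLP, against 2.09 and 2.36 in TCR libraries. Psmb6 over Psmb9 was 0.733 and 0.705 in TCR+TSLP, against 0.889 and 0.787 in TCR libraries. TCR+TSLP libraries thus lay above TCR libraries for the first 2 pairs and below them for the third.

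The third comparison set lung control Tregs beside TCR-stimulated spleen Tregs, groups in which tissue, immunization, culture, stimulation, genotype and any difference of library kit cannot be told apart. Of 35 members 27 were lower in lung control and 0 higher (edgeR, 0 higher at an unadjusted p under 0.05, and 0 by DESeq2 or limma), where 51.9% of 13304 genes were called, 25.6% higher and 26.3% lower. The core had 12 of 15 lower with a median log2 fold change of -1.38, and the 19S genes 15 of 20 lower with a median of -0.99, against 0.00051 for all genes. Without lung control 3, 26 were lower, where 3867 of 13290 genes were, and with library totals alone 24 were, where 2887 of 13304 were. On the deposited RPKM 34 were called lower, where 5984 of 10454 genes were lower and 1081 higher, and the median of all genes was -0.72.

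The largest difference was that of the ATPase gene Psmc1, at 16.1, 25.3 and 23.3 in lung control, against 172 and 193 in TCR libraries (log2 fold change -3.05 ± 0.22, adjusted p = 5.08e-05). Psmb4 was at 91.9, 58.3 and 80.7 in lung control, against 625 and 645 in TCR libraries (-2.97 ± 0.20, adjusted p = 4.21e-05). Psma6 was at 55.1, 66.8 and 57.5 in lung control, against 377 and 394 in TCR libraries (-2.65 ± 0.15, adjusted p = 2.42e-05). For these genes all lung control libraries lay far below both TCR libraries, where 39.1% of all genes tested lay below without overlap.

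The catalytic Psmb7 was at 62.8, 58.3 and 64.5 in lung control, against 369.9 and 386 in TCR libraries (-2.55 ± 0.14, adjusted p = 2.16e-05). Psmd1 was at 23.5, 13.5 and 18.3 in lung control, against 121 and 106 in TCR libraries (-2.55 ± 0.23, adjusted p = 0.000132). The other catalytic genes differed less, Psmb5 with a log2 fold change of -1.46 ± 0.15 and Psmb6 with -0.66 ± 0.16, and Psmb6 was not called with the length trend removed (adjusted p = 0.0959).

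Members of one ring differed widely in this comparison. Psmb3 (-0.08 ± 0.13, adjusted p = 0.634) and Psmb2 (-0.12 ± 0.14, adjusted p = 0.524) sat in the same beta ring as Psmb4 and Psmb7 and did not pass the test. In the cap, Psmd11 (-0.10), Psmd4 (-0.32) and the chaperones Psmd5 (0.16), Psmd9 (0.03) and Psmd10 (-0.36) did not pass either. With the length trend removed 11 core and 13 19S genes were lower, where 3338 of 13304 genes were. The difference between the core and 19S medians was then -0.11 in place of -0.39. With GC removed as well it was 0.049.

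The pathway list held 3 higher and 22 lower genes of 35 in lung control, where 25.6% of all genes were higher and 26.3% lower. Without lung control 3 it again held 3 and 22, where 3674 of 13290 genes were higher and 3867 lower. It held 3 and 17 by library totals alone, where 3916 of 13304 genes were higher and 2887 lower. On the deposited RPKM it held 1 and 31, where 1081 of 10454 genes were higher and 5984 lower. In the edgeR test the ubiquitin gene Ubb (2.23), Nfe2l2 (1.43) and Psmb10 (0.64) were higher. On the deposited RPKM only Ubb was called higher (1.31), and Psmb10 turned to -0.30 (adjusted p = 0.199 by limma). All 5 core assembly genes were lower, from -2.43 for Psmg2 to -0.68 for Psmg4. With the length trend removed 4 of 5 were called lower, and Psmg4 was not (-0.31, adjusted p = 0.201 by edgeR). Psmg4 was not called with library totals alone either (-0.48, adjusted p = 0.0881 by edgeR). The ubiquitin-ribosomal fusion gene Rps27a (-3.85) was lowest, and its reads may be shared with near-identical copies.

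Within each library, the mean log2 RPKM of the core genes minus that of the 19S genes gives their relative level without scaling between libraries (15 and 20 genes with reads in every library). It was 0.753 and 0.741 in TCR+TSLP and 1.18 and 1.10 in TCR libraries. It was 0.728, 0.812 and 0.716 in lung Crlf2-deleted and 0.785, 0.715 and 0.801 in lung control libraries. The means correspond to core levels 1.68, 2.203, 1.68 and 1.70 times those of the 19S genes in TCR+TSLP, TCR, lung Crlf2-deleted and lung control libraries. The TCR libraries lay above all others, and the lung groups overlapped. This level was not corrected for transcript length, and the core transcripts were shorter (median 1016.5 bases, against 1582). With the length trend removed, the core minus 19S median log2 fold change was 0.0016 for TCR+TSLP against TCR. For lung control against TCR it was -0.11, and 0.049 with GC removed as well. Without Psmb11 and the 3 chaperone genes the means were 0.98 in TCR+TSLP and 1.22 in TCR, a difference of -0.24 in place of -0.39.

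**Figure D4:**
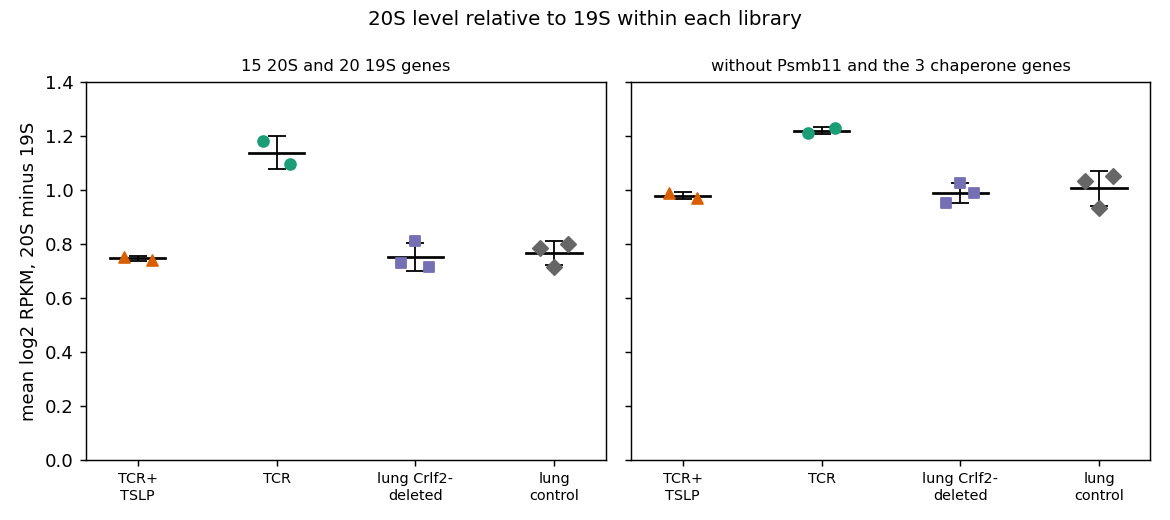
Mean log2 RPKM of the 20S genes minus that of the 19S genes within each library, for all genes with reads in every library (left) and without Psmb11 and the 3 chaperone genes (right). Points are libraries, horizontal bars group means and vertical bars SD (n = 2 or 3). The TCR libraries lie highest in both panels, with no correction for transcript length.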

How the data were processed

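Per the file headers, the deposited files hold, for each of 31682 RefSeq transcript rows per library, a whole read count and an RPKM. The authors' RPKM divides the count by transcript length and a library total, of which the rows listed made up 21.2% to 63.8%. The submitters' processing notes list the tools edgeR, TopHat2 2.2.1, bedtools 2.25.0, Bowtie2 2.2.6 and SAMtools 0.1.8 and the build mm10, without roles. How reads were counted, by which strand rule, and what was done with reads of several places is not stated in the labels. Per the labels' protocols, reads were 50 bp single ends, TCR-stimulated Tregs were prepared with a stranded TruSeq kit with Ribo-Zero and Tregs without such stimulation with SMART-Seq, and the kit of the lung libraries is not stated separately.

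From the deposited counts, 1 transcript per symbol was tested with edgeR 4.0.16 in R 4.3.3 (TMM, filterByExpr with a minimum count of 10, robust quasi-likelihood test, two-sided, Benjamini-Hochberg over all genes, threshold 0.05), within the 2 groups of each comparison. The test was checked on simulated counts. Alternatives used DESeq2 1.42.0, limma 3.58.1 on log2(RPKM + 1) for genes with a mean RPKM of at least 0.5, other scalings and filters, all groups in 1 fit, summed transcripts, loess trends (span 0.3) on length and GC (known for all 36 members, not for 210 symbols), the replicate number as a block, and each library left out. No 2 replicates agreed within sampling noise (chi-square per degree of freedom 6.09 to 172). The members, their roles, the pathway and marker lists and the rule for named genes (the 3 catalytic genes, the 5 largest fold changes called or the 3 smallest p in each comparison, and the highest and lowest gene of 20S and 19S) were chosen with earlier results of these data known. Other members named by value were chosen after their values were seen. Of the pathway list, 2 genes are not reported here and are left out of its counts.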

Additional observations from a re-analysis of the deposited data

How the results depend on the processing

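With TSLP, the number of members called (21) was 10 in limma on log2(RPKM + 1) and on log2(RPKM + 0.1), 10 with the length trend removed, 12 with length and GC trends removed, 11 with all 4 groups in 1 fit, and 13 to 31 with single libraries left out, the lowest without TCR+TSLP replicate 2. The members higher (1) were 4 with library totals alone, 5 in either limma fit, 3 and 2 with length or length and GC removed, 0 with all groups in 1 fit, and 1 to 3 with libraries left out. The members lower (20) were 13, 5 and 5, 7 and 10, and 11 in the same settings, and 12 to 30 with libraries left out. All genes called (6050) were 3912 with length and GC removed, 1356 with all groups in 1 fit, and 3228 to 8624 with libraries left out (3769 and 3228 without TCR+TSLP replicates 1 and 2). The core minus 19S median (-0.34) turned to 0.0016 and 0.013 with length and with length and GC removed, and ran from -0.41 to -0.31 with libraries left out. The 19S median turned to 0.10 and 0.11 in the limma fits. Single members that turned were Psma2 (0.038 and 0.038 in limma, 0.23 with length removed), Psma3 (0.025 and 0.026), Psmc2 (0.091 and 0.092) and Psmd8 (0.064 and 0.065) in limma, Psmb2 (0.44 and 0.47 with length and with length and GC removed) and Psmb5 (0.13 with length and GC removed). With Crlf2 deletion, 0 members were called in every alternative. All genes called (227) were 867 in DESeq2, 1082 and 1015 in limma, 873 with all groups in 1 fit, 131 with summed transcripts, and 4 to 532 with libraries left out (33, 22 and 532 without lung control replicates 1, 2 and 3, and 4, 124 and 7 without lung Crlf2-deleted replicates 1, 2 and 3). The core median turned to 0.049 with library totals and 0.27 and 0.28 in limma, and the 19S median to 0.021, 0.24 and 0.26. The core minus 19S median (0.02) was -0.038 with length and GC removed and -0.021 to 0.051 with libraries left out. In lung control against TCR, 20 to 26 members were lower with libraries left out, all genes called ran from 3467 to 7541 (3584 and 3467 without TCR replicates 1 and 2), and the core minus 19S median (-0.39) was -0.11 with length removed, 0.049 with length and GC removed and -0.39 to -0.28 with libraries left out. Psmd5 (-0.68) and Psmd9 (-0.75 and -0.91) turned in limma. The cause of these changes was not tested.

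The replicate number did not pair the libraries (correlations of same-numbered deviations -0.148 to 0.0838). With it as a replicate block, 20 members were called with TSLP (1 higher, 19 lower; 5817 genes), 0 with Crlf2 deletion (121 genes) and 27 in lung control against TCR (core minus 19S median -0.32). With the numbers crossed, chosen after seeing the data, 1 member was higher and 26 lower with TSLP. The core minus 19S level was, on log2(RPKM + 1), without the chaperone genes and Psmb11, and as a ratio of summed RPKM, 0.895, 0.98 and 0.662 in TCR+TSLP (0.741 to 0.753 with libraries left out), 1.19, 1.22 and 0.945 in TCR (1.10 to 1.18), 0.832, 0.989 and 0.67 in lung Crlf2-deleted (0.722 to 0.77), and 0.859, 1.01 and 0.69 in lung control libraries (0.75 to 0.793). Lung control 2, with 1439675 reads, gives the least precise values.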
